A study of Homo sapiens with 21 samples.

Results

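CPI-0209 and PF-06821497 were compared head to head in tumours of HT1376, an established human bladder carcinoma cell line grown as a xenograft. The series calls both of them EZH2 inhibitors. The comparison took the 3 libraries labelled CPI-0209 and the 3 labelled PF-06821497, chosen by treatment label alone, from the 21 libraries of the series. The 3 vehicle libraries are given as the common background. HT1376 cells, mixed with Matrigel, had been placed under the skin of the right flank of female CB17 SCID mice aged 6 to 8 weeks. SCID mice lack functional T and B cells and keep innate immune cells, vessels and stroma of their own. Dosing began 11 to 15 days later, at a mean tumour size between 139 and 160 mm3. Each compound was given by mouth once a day at 75 mg/kg, and tumour harvest followed on day 15, at 1 hour after dosing. The single dose and single time were the same for both compounds, so no dose response was available. All groups shared 1 cell line, the host strain, the Matrigel and the schedule. PF-06821497 library 1 carried a resubmission mark in its title and library 2 in its count column. Nothing in the labels ties the 3 libraries of a group to separate mice, so a p-value here reflects only how these libraries vary, and that variation may be technical.

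EZH2 is the main catalytic subunit of polycomb repressive complex 2 (PRC2), which also holds EED and SUZ12. The complex places methyl groups on lysine 27 of histone H3, a mark of silent developmental regulators such as the HOX genes. In tumour cells the mark has also been described at genes of antigen presentation, including the class II transactivator CIITA, and at chemokine genes. EZH1 is a related catalytic subunit with weaker activity.

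Because genes of antigen presentation and chemokines stood out between the compounds, promoters of 6 of them are shown first. They come from the RefSeq promoter table (build GRCh38.p14), which held a promoter for 13634 of the 21910 distinct names of tested genes (62.2%). A gene without a symbol was counted under its Ensembl identifier. Each is the 250 bases before the start of the gene on its own strand, 5′ to 3′. HLA-DRB1 (chr6:32589849-32590098, minus strand), HLA-DQB1 (chr6:32666658-32666907, minus) and HLA-DMA (chr6:32953098-32953347, minus) encode class II chains. TAP1 (chr6:32853705-32853954, minus) encodes a peptide transporter of the class I pathway. CXCL10 (chr4:76023498-76023747, minus) and CXCL1 (chr4:73869143-73869392, plus) encode chemokines. Capitals mark every match to any of 3 motifs: the Y box letters CTGATTGG in the class II promoters and, as the reverse complement CCAATCAG, in CXCL10, an interferon response element (GAAA, any 2 bases, GAAA, or its reverse complement, as in TAP1) in TAP1 and CXCL10, and an NF-kB motif (GGG, any 2 bases, TTTCC) in TAP1 and CXCL1. In TAP1 the interferon element occurs as 2 overlapping copies.
HLA-DRB1: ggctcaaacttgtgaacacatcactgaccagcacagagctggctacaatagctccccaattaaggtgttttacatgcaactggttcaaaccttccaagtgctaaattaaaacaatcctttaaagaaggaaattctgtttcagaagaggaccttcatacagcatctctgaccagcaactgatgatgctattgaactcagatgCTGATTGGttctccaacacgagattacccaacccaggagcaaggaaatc
HLA-DQB1: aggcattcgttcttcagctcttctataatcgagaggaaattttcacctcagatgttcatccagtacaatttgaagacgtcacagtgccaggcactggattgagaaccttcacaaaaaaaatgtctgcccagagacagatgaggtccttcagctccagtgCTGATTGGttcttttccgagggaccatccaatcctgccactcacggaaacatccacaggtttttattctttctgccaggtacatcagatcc
HLA-DMA: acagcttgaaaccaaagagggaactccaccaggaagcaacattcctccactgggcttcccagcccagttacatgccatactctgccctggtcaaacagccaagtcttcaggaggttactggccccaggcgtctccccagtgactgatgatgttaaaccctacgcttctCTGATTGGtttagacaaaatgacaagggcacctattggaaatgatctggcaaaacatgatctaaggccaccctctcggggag
TAP1: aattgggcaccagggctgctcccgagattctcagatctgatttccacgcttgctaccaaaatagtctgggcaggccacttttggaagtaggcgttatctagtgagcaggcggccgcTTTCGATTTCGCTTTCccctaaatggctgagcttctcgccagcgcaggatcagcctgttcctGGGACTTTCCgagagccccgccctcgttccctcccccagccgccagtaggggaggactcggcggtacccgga
CXCL10: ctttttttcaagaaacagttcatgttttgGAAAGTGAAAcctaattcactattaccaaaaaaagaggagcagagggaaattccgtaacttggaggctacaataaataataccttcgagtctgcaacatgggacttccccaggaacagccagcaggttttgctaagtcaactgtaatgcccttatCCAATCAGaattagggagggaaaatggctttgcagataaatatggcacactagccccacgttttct
CXCL1: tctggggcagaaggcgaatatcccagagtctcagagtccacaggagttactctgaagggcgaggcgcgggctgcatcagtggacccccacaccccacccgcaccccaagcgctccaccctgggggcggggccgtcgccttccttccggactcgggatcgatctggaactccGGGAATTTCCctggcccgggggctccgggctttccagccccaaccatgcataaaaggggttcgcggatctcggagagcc

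Searched on both strands, the Y box letters stood in 3.98% of the 27305 promoters of the table, the interferon element in 3.07% and the NF-kB motif in 1.73%, and in 5.28%, 2.41% and 1.91% of those of tested genes. Among the class II presentation genes, 5 of the 15 with a promoter held the Y box (33.3%). The Y box was also frequent in other lists, at 23.1% for cholesterol and fatty acid synthesis, 23.1% for stress response, 22.2% for class I presentation and 20.3% for proliferation genes. Among the class I presentation genes, 7 of 18 held the interferon element, and among the interferon-stimulated genes 21 of 40 did. The NF-kB motif stood in 6 of 19 promoters of NF-kB subunit and feedback genes and in 6 of 19 of chemokines. A match is a description of the letters and not a bound site. Other spellings of these motifs were not searched, so an unmarked promoter may hold one.

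Expression differed between the compounds at 4955 of 21958 tested genes (22.6%, edgeR adjusted p under 0.05). With CPI-0209, 3054 of them (13.9% of tested genes) stood higher and 1901 (8.66%) lower. These shares are the background for the list counts below. Higher genes moved further: their median log2 difference was 1.75, against -0.62 for the lower genes and -0.02 for all tested genes. At least a 2-fold difference was reached by 2372 higher and 436 lower genes, and at least 8-fold by 410 and 10. A minimum level in 3 libraries other than those of CPI-0209 was reached by 20976 of the tested genes, and 2602 of these were higher. Higher genes were also less abundant, with a median of 3.96 CPM (counts scaled to the size of the library) in CPI-0209 tumours, whereas the lower genes had a median of 38.2 CPM in PF-06821497 tumours. The 3 libraries of each group did not overlap at 7218 genes (32.9%). Of the 17003 genes that missed the threshold, 11640 had a 95% interval of the difference within 2-fold either way, and 5363 had an interval that reached further. Calls were higher in 61.6% of cases, and in 73.6% with upper-quartile scaling, where all tested genes had a median of 0.06. Fewer genes were lower, 1259 and 1222, without CPI-0209 library 2 or library 3.

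**Figure D1:**
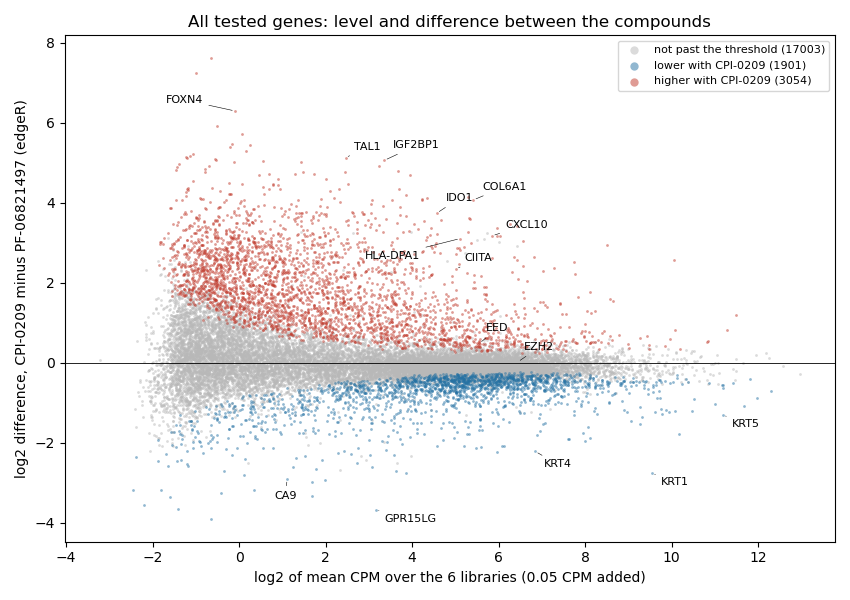
Log2 difference between CPI-0209 and PF-06821497 (vertical axis) against the log2 mean level in CPM over the 6 libraries, 1 point per tested gene. Red points (3054 genes) lie above 0 and reach larger differences at lower levels than the blue points (1901 genes).

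CPI-0209 library 3 stood apart. It had the lowest depth, 9725690 counts, against 16583137 and 16819167 in the other CPI-0209 libraries and 19553411 to 24097875 in the PF-06821497 libraries. Its 27 skeletal muscle markers summed to 2671 CPM, against 768.5 and 619.6 CPM in CPI-0209 libraries 1 and 2 and 668 to 849.5 CPM with PF-06821497. Processed pseudogenes, gene copies whose reads are easily shared with similar transcripts, summed to 6572 CPM in it, against 2890 and 3160 CPM in libraries 1 and 2 and 1825 to 2010 CPM with PF-06821497. Several values that rest on this library are therefore given with and without it. Within a group, log2 CPM correlated across genes at 0.975 to 0.987, and between the groups at 0.927 to 0.975. Genes are not independent replicates. In bulk tumours, fewer cells of a type and less RNA per cell cannot be told apart.

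RNA of the PRC2 core subunits EZH2, SUZ12 and EZH1 did not pass the test between the compounds, and that of EED did. EZH2 (ENSG00000106462, hg38 chromosome 7, 148807383 to 148884321, minus strand) had 84.6, 79.5 and 99.1 CPM in the 3 CPI-0209 libraries and 91.3, 79.6 and 88.0 CPM in the PF-06821497 libraries. These ranges overlapped, and the log2 difference was 0.02 ± 0.10 (adjusted p = 0.908), with a 95% interval of -0.19 to 0.23. SUZ12 had a difference of 0.01 ± 0.19 (adjusted p = 0.969), with an interval of -0.38 to 0.41. That of EZH1 was -0.21 ± 0.11 (adjusted p = 0.190), with an interval of -0.43 to 0.02. EED, the subunit that reads the methyl mark, had 50.1, 47.5 and 67.0 CPM with CPI-0209 and 44.5, 36.7 and 36.1 CPM with PF-06821497. All 3 CPI-0209 libraries lay above the others, and EED was higher by 0.49 ± 0.13 (adjusted p = 0.00952), a call lost without CPI-0209 library 3 or PF-06821497 library 3. Of 14 PRC2 genes, 3 were higher and 1 lower, against 13.9% and 8.66% of all tested genes, with a median of 0.00. EZHIP, a protein inhibitor of the complex, was higher (0.87 ± 0.26, adjusted p = 0.0196), as was EPOP, an accessory subunit (0.52 ± 0.15, adjusted p = 0.0183). AEBP2, another accessory subunit, was lower (-0.43 ± 0.15, adjusted p = 0.0381), with overlapping groups. The EZHIP and EPOP calls were lost without CPI-0209 library 2, PF-06821497 library 2 or PF-06821497 library 3. The AEBP2 call was lost without CPI-0209 library 1 or 2, or PF-06821497 library 1 or 2.

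MHC class II presentation and HOX genes had the highest medians of the gene lists, and which of them led differed between settings. Of the 18 class II genes, 14 were higher with CPI-0209 and 1 was lower, with a median log2 difference of 2.99, against -0.02 over all tested genes. CIITA (ENSG00000179583, hg38 chromosome 16, 10866222 to 10932281, plus strand), the activator on which class II transcription depends, had 48.7, 58.4 and 54.4 CPM with CPI-0209 and 14.5, 9.93 and 7.42 CPM with PF-06821497, against 5.19 ± 0.596 CPM (SD, n = 3) in vehicle. The groups were far apart, with a difference of 2.34 ± 0.28 (adjusted p = 1.02e-05). HLA-DPB1 (ENSG00000223865, hg38 chromosome 6, 33075926 to 33087201, plus strand), the beta chain of a class II molecule, had 29.5, 52.4 and 32.1 CPM with CPI-0209 and 4.88, 3.31 and 4.30 CPM with PF-06821497. Its partner HLA-DPA1 had 45.2, 83.2 and 57.0 CPM against 8.26, 5.89 and 7.42 CPM. For both chains the lowest CPI-0209 library was several times the highest PF-06821497 library, and the differences were 3.20 ± 0.33 (adjusted p = 3.67e-06) and 3.11 ± 0.36 (adjusted p = 9.79e-06). Vehicle stood at 0.832 ± 0.374 CPM for HLA-DPB1 and 1.49 ± 0.528 CPM for HLA-DPA1 (SD, n = 3). HLA-DMB, a chain of the molecule that loads peptide onto class II, was higher by 3.39 ± 0.39 (adjusted p = 6.99e-06). The 3 genes whose promoters are shown were higher too: HLA-DRB1 by 3.42 ± 0.40 (adjusted p = 1.36e-05), HLA-DQB1 by 3.18 ± 0.38 (adjusted p = 1.72e-05) and HLA-DMA by 2.48 ± 0.32 (adjusted p = 1.58e-05). Reads of HLA-DRB1, HLA-DQB1 and HLA-DQB2 can be shared with close paralogs, so their split is uncertain. The invariant chain CD74 was higher by 2.94 ± 0.41 (adjusted p = 8.51e-05). The gene that went the other way was RFXAP, a subunit of the factor that binds class II promoters, at -0.50 ± 0.18 (adjusted p = 0.0494). Its call held only without CPI-0209 library 1 among the 6 fits that left out 1 library, and was lost with a block by count column number (adjusted p = 0.0570). The count of higher genes was also 14 without CPI-0209 library 3.

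Class I presentation genes were higher by smaller amounts. Of 22 genes, 14 were higher and 0 lower, with a median of 0.55, and leaving out CPI-0209 library 3 gave 14 and 0 as well. TAP1 had 231, 273 and 235 CPM with CPI-0209 and 125, 89.0 and 101 CPM with PF-06821497. PSMB9, a subunit of the immunoproteasome, had 80.2, 105 and 80.4 CPM and 31.6, 38.5 and 36.7 CPM. Neither gene had overlapping groups, and the differences were 1.23 ± 0.15 (adjusted p = 8.76e-06) for TAP1 and 1.31 ± 0.14 (adjusted p = 4.45e-06) for PSMB9. NLRC5, the activator of class I genes, was higher by 1.45 ± 0.19 (adjusted p = 2.01e-05). HLA-F, a non-classical class I chain, was higher by 1.304 ± 0.18 (adjusted p = 3.05e-05). The chaperones CANX and CALR did not pass the test, with intervals of -0.26 to 0.26 and -0.01 to 0.59.

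Chemokines were the other inflammatory group with large differences. Of 34 listed, 27 were tested and 7 fell under the filter on low counts. Of the tested genes, 19 were higher, 1 was lower and 7 did not pass, with a median of 2.21. Of the 26 that reached the filter minimum in libraries other than CPI-0209, 18 were higher and 1 lower. Over all tested genes, 13.9% were higher and 8.66% lower. CXCL10 (ENSG00000169245, hg38 chromosome 4, 76021117 to 76023497, minus strand), a ligand of CXCR3, a chemokine receptor of T cells, had 97.2, 118 and 95.9 CPM with CPI-0209, 15.9, 8.85 and 9.83 CPM with PF-06821497 and 0.813 ± 0.0965 CPM (SD, n = 3) in vehicle. Every CPI-0209 library exceeded every PF-06821497 library, by 3.18 ± 0.37 (adjusted p = 1.27e-05). CXCL1, which recruits neutrophils, had 36.1, 50.9 and 42.5 CPM against 7.79, 3.95 and 7.55 CPM, a difference of 2.75 ± 0.29 (adjusted p = 3.67e-06). CCL5, which recruits T cells and monocytes, had 181, 329.8 and 265 CPM against 69.7, 40.4 and 39.8 CPM (2.37 ± 0.28, adjusted p = 1.11e-05). CCL4 was at 6.19, 11.4 and 10.6 CPM against 0.883, 0.0430 and 0.483 CPM (4.35 ± 0.54, adjusted p = 1.20e-05). CCL24, which attracts eosinophils, was the single lower chemokine, at -2.25 ± 0.59 (adjusted p = 0.00867), and the call was lost without CPI-0209 library 2 or PF-06821497 library 3. CCL2, the main monocyte attractant, did not pass (interval -1.12 to 1.41).

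**Figure D2:**
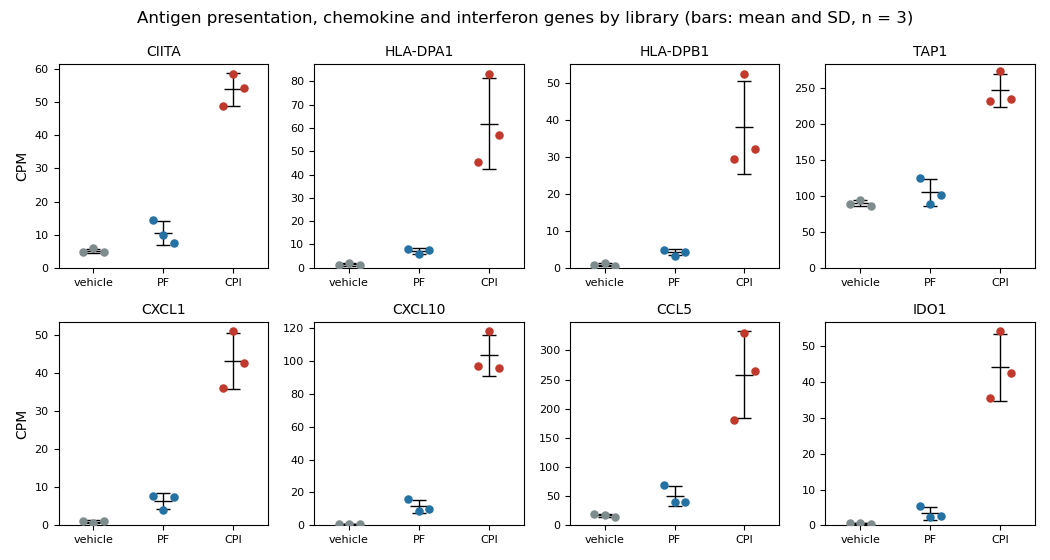
CPM of 8 genes of antigen presentation, chemokines and the interferon response in the vehicle (grey), PF-06821497 (blue) and CPI-0209 (red) libraries, each panel on its own axis from 0, with bars for the mean and SD (n = 3). In each of the 8 panels the 3 CPI-0209 points lie above the 3 PF-06821497 points.

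Cytokines were higher more often than lower, against 13.9% higher and 8.66% lower over all tested genes. Of 33 listed, 29 were tested, of which 17 were higher, 3 lower and 9 did not pass, with a median of 1.36. Of the 27 that reached the filter minimum in libraries other than CPI-0209, 17 were higher and 3 lower. CSF1, the growth factor of macrophages, had 54.2, 66.1 and 71.6 CPM with CPI-0209 and 16.8, 10.2 and 13.3 CPM with PF-06821497. LIF, of the interleukin-6 family, had 57.4, 78.6 and 74.4 CPM and 18.5, 13.5 and 14.2 CPM. Both had groups that did not overlap, with differences of 2.25 ± 0.22 (adjusted p = 2.68e-06) and 2.18 ± 0.26 (adjusted p = 9.19e-06). IL6 (3.37 ± 0.39, adjusted p = 7.33e-06) and IL11 (1.83 ± 0.22, adjusted p = 7.69e-06), of the same family as LIF, were higher as well. The lower cytokines were IL1RN, the antagonist of interleukin-1 (-1.58 ± 0.24, adjusted p = 1.02e-04), the apoptosis ligand TNFSF10 (-0.83 ± 0.29, adjusted p = 0.0426) and IL18 (-0.78 ± 0.19, adjusted p = 0.00559). Of the 6 fits that left out 1 library, the TNFSF10 call held only in that without PF-06821497 library 2. Without PF-06821497 library 2 the lower cytokines numbered 5.

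Interferon-stimulated genes had a median of 0.63. They were higher in 37 of 55 cases and lower in 0, against 13.9% and 8.66% of all tested genes. The count was 30 without CPI-0209 library 3, 21 without PF-06821497 library 2 and 24 without PF-06821497 library 3. IDO1, which degrades tryptophan, had 35.6, 54.2 and 42.7 CPM with CPI-0209 and 5.35, 2.19 and 2.46 CPM with PF-06821497. IRF1, a transcription factor of the interferon response, had 121, 148 and 130.0 CPM and 62.9, 55.0 and 63.9 CPM. The difference at IDO1 was 3.74 ± 0.40 (adjusted p = 5.49e-06) and that at IRF1 1.13 ± 0.13 (adjusted p = 6.13e-06), and neither gene had overlapping groups. ZBP1, a sensor of nucleic acids, was higher by 2.84 ± 0.32 (adjusted p = 6.13e-06), and IFI35 by 1.24 ± 0.16 (adjusted p = 1.89e-05). IRF9, a transcription factor of interferon signalling, did not pass (interval -0.30 to 0.21).

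Among NF-kB subunits and feedback genes, 13 of 22 were higher and 0 lower, against 13.9% and 8.66% of all tested genes. Their median was 0.63. The subunits NFKB1, REL and RELA did not pass the test, nor did the feedback genes NFKBIA and NFKBIZ. SOD2, a mitochondrial superoxide dismutase, had 556, 677 and 559.5 CPM with CPI-0209 and 263, 165 and 186 CPM with PF-06821497. ICAM1, an adhesion molecule for leukocytes, had 60.3, 103 and 71.9 CPM and 34.5, 17.1 and 29.5 CPM. Both were clear of overlap, at 1.55 ± 0.21 (adjusted p = 3.30e-05) and 1.54 ± 0.24 (adjusted p = 9.94e-05). BCL2A1, a survival gene of the BCL2 family, was higher by 2.77 ± 0.30 (adjusted p = 4.36e-06), and CD83 by 1.73 ± 0.22 (adjusted p = 1.27e-05).

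Markers of host or immune cells moved in part with these inflammatory genes. Lymphocyte markers had 6 of 17 genes tested, 3 of them higher. Only 4 of the 6 reached the filter minimum in libraries other than CPI-0209, and 2 of these 4 were higher. The 17 markers summed to 9.5 to 11.0 CPM with CPI-0209 against 4.8 to 5.4 CPM with PF-06821497. CD3E, a chain of the T cell receptor complex, was at 2.01, 3.28 and 2.29 CPM against 1.04, 0.860 and 1.45 CPM (1.18 ± 0.27, adjusted p = 0.00314). Of the 17 lymphocyte markers, 2 to 3 had 0 counts in each CPI-0209 library and 4 to 7 in each PF-06821497 library. Macrophage and granulocyte markers had 7 of 17 tested genes (22 listed) higher and 0 lower, against 13.9% and 8.66% of all tested genes. Of the 15 that reached the filter minimum in libraries other than CPI-0209, 5 were higher. The 22 markers summed to 186 to 222 CPM against 158 to 186 CPM, with 1 to 2 and 2 to 3 at 0 counts in each library. LAPTM5, a lysosomal protein of blood cells, was higher by 1.28 ± 0.18 (adjusted p = 3.42e-05), and PTPRC, the pan-leukocyte antigen CD45, stood at 0.948, 0.690 and 2.77 CPM against 0.104, 0.0860 and 0.307 CPM (3.00 ± 0.56, adjusted p = 5.32e-04). PTPRC lay under a floor of 3 counts in PF-06821497 libraries 1 and 2 (0.156 and 0.129 CPM). Its highest value was in CPI-0209 library 3. The part of these markers in the inflammatory differences was not tested, and the species of the reads is not recorded in the counts.

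Many HOX genes, regulators of position along the body axis, were higher with CPI-0209 and near the detection floor with PF-06821497. Of 39 listed, 26 were tested, and the other 13 fell under the filter on low counts. In each PF-06821497 library 6 to 17 of the 39 had 0 counts, against 9 to 14 in vehicle and 2 to 3 with CPI-0209. Of the tested genes, 25 were higher and 0 lower, with a median of 2.97. The filter shapes this count, since 9 of the 26 reached its minimum (0.460 CPM in 3 libraries) through the CPI-0209 libraries alone, and 4 reached it in all PF-06821497 libraries. Of the 17 that reached it in other libraries, 16 were higher. All 4 clusters held higher genes. HOXB7 (ENSG00000260027, hg38 chromosome 17, 48607227 to 48633572, minus strand) had 3.62, 8.28 and 9.56 CPM with CPI-0209 and 0.883, 0.301 and 0.439 CPM with PF-06821497, with vehicle at 0.269 ± 0.199 CPM (SD, n = 3). HOXA3 had 1.78, 2.07 and 3.73 CPM and 0.208, 0.301 and 0.220 CPM. HOXA5 had 3.34, 3.91 and 8.03 CPM and 0.727, 1.03 and 1.80 CPM. None of these 3 genes had overlapping groups, and the differences were 3.73 ± 0.50 (adjusted p = 2.15e-05), 3.31 ± 0.50 (adjusted p = 7.53e-05) and 2.05 ± 0.36 (adjusted p = 3.06e-04). HOXD11 was higher by 4.68 ± 0.69 (adjusted p = 6.12e-05). The 39 genes summed to 43.8, 65.5 and 135 CPM in CPI-0209 libraries 1, 2 and 3, against 7.26 to 17.1 CPM with PF-06821497 and 9.40 to 14.6 CPM in vehicle. The sum was thus above PF-06821497 in every CPI-0209 library, and highest in library 3. Without CPI-0209 library 3, 16 of the 26 were higher and the median was 2.36. With the muscle markers as a covariate 15 were higher and the median was 1.92. The part of the muscle signal in the HOX difference was not tested beyond these values.

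**Figure D3:**
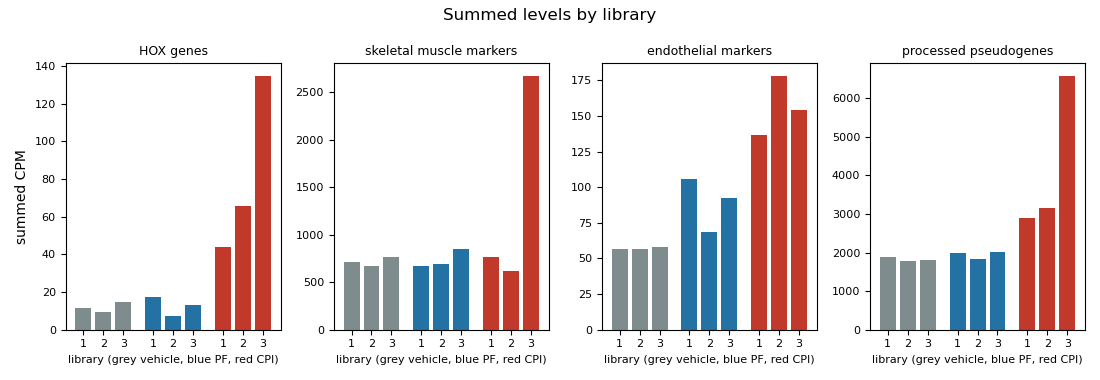
Summed CPM per library of HOX genes, skeletal muscle markers, endothelial markers and processed pseudogenes, with vehicle in grey, PF-06821497 in blue and CPI-0209 in red. HOX and endothelial sums are above PF-06821497 in all 3 CPI-0209 libraries, whereas the muscle sum stands out in library 3 alone, at 2671 CPM.

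Other transcription factors of development were higher more often than lower. Of 221 listed, 121 were tested, of which 68 were higher, 10 lower and 43 did not pass, with a median of 1.35. Of the 102 that reached the filter minimum in libraries other than CPI-0209, 54 were higher and 10 lower, with a median of 1.03. TAL1 (ENSG00000162367, hg38 chromosome 1, 47216290 to 47232220, minus strand), a regulator of blood formation, had 5.85, 11.6 and 14.4 CPM with CPI-0209 and 0.623, 0.129 and 0.176 CPM with PF-06821497. WT1, a regulator of kidney and gonad formation, had 3.18, 6.09 and 6.50 CPM and 0.312, 0.172 and 0.0878 CPM. TWIST1, a mesenchymal regulator, had 29.1, 47.2 and 50.2 CPM and 11.9, 9.80 and 10.8 CPM. All 3 genes separated the groups, by 5.13 ± 0.53 (adjusted p = 3.56e-06), 4.77 ± 0.52 (adjusted p = 4.60e-06) and 1.96 ± 0.21 (adjusted p = 4.35e-06). TBX5, of limb and heart, was higher by 3.93 ± 0.44 (adjusted p = 5.58e-06). Without CPI-0209 library 3, 55 were higher and 6 lower, and the lower genes numbered 4 without CPI-0209 library 2 and 6 without PF-06821497 library 1.

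Signalling genes of development had 34 of 77 tested genes (101 listed) higher and 5 lower, with a median of 0.71. Of the 70 that reached the filter minimum in libraries other than CPI-0209, 30 were higher. Without CPI-0209 library 3, 24 of the 77 were higher and 5 lower. FST, an inhibitor of activins, had 178, 207 and 208 CPM with CPI-0209 and 82.3, 76.9 and 57.9 CPM with PF-06821497. INHBA, the activin A subunit that FST binds, had 148, 199 and 202 CPM and 85.9, 57.7 and 47.2 CPM. Both were higher with groups that did not overlap, by 1.45 ± 0.16 (adjusted p = 5.58e-06) and 1.53 ± 0.18 (adjusted p = 7.27e-06). NTN1, an axon guidance factor, was higher by 4.08 ± 0.47 (adjusted p = 7.48e-06). DKK3, a secreted protein of the Dickkopf family, was lower, at 25.8, 19.2 and 18.7 CPM against 50.7, 64.0 and 63.8 CPM (-1.48 ± 0.21, adjusted p = 5.14e-05).

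Neuronal and synaptic genes had 17 of 48 tested members (59 listed) higher and 2 lower, with a median of 0.82, and 15 of the 41 that reached the filter minimum in other libraries were higher, with a median of 0.50. Without CPI-0209 library 3, 15 of the 48 were higher and 1 lower. The lower genes also numbered 1 without PF-06821497 library 1. CHGA, a granule protein of neuroendocrine cells, had 35.5, 61.1 and 50.1 CPM with CPI-0209 and 14.4, 9.50 and 12.03 CPM with PF-06821497, a difference of 2.03 ± 0.27 (adjusted p = 2.34e-05). NCAM1, a neural adhesion molecule, differed by 2.52 ± 0.31 (adjusted p = 1.23e-05), UCHL1 by 1.97 ± 0.24 (adjusted p = 9.87e-06) and the postsynaptic scaffold DLG4 by 1.41 ± 0.20 (adjusted p = 4.37e-05). Cancer-testis genes, normally limited to germ cells, had 16 of 57 tested members (70 listed) higher and 6 lower, with a median of 0.08. Over all tested genes, 13.9% were higher and 8.66% lower. Of the 53 that reached the filter minimum in libraries other than CPI-0209, 14 were higher and 6 lower. PRAME had 14.9, 28.3 and 15.7 CPM against 6.08, 4.43 and 7.33 CPM (1.73 ± 0.26, adjusted p = 6.88e-05). MAGEA1 was higher by 1.90 ± 0.27 (adjusted p = 3.82e-05), PAGE1 by 1.33 ± 0.19 (adjusted p = 4.01e-05) and MAGEA10 by 0.89 ± 0.13 (adjusted p = 6.04e-05). SPANXB1 went the other way, at 0.836, 0.690 and 0.382 CPM against 2.34, 4.08 and 5.66 CPM (-2.60 ± 0.49, adjusted p = 6.08e-04). Many of these families have near-identical copies, so the split of reads among them is uncertain.

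Genes of the basal and squamous programme were lower with CPI-0209. Of 84 genes, 55 were lower and 2 higher, with a median of -1.03. The groups did not overlap at 58 of them, against 32.9% of all tested genes. KRT5, the basal keratin, had 1741, 1214 and 1078 CPM with CPI-0209 and 3644, 2909.9 and 3404 CPM with PF-06821497, with vehicle at 3109.9 ± 203 CPM (SD, n = 3). KRT4, a keratin of internal squamous epithelium, had 46.8, 45.5 and 29.7 CPM and 162, 180.2 and 228 CPM. KRT1 (ENSG00000167768, hg38 chromosome 12, 52674736 to 52680407, minus strand), a keratin of differentiating epidermis, had 220.0, 164 and 194 CPM and 1521, 927 and 1466 CPM. In all 3 keratins every CPI-0209 library lay under every PF-06821497 library, with log2 differences of -1.304 ± 0.23 (adjusted p = 3.75e-04), -2.22 ± 0.23 (adjusted p = 3.56e-06) and -2.76 ± 0.34 (adjusted p = 1.71e-05). The protease inhibitors SERPINB3 (-2.23 ± 0.28, adjusted p = 1.39e-05) and SERPINB13 (-1.46 ± 0.17, adjusted p = 6.21e-06) and the protease KLK11 (-1.89 ± 0.22, adjusted p = 7.69e-06) were lower. SERPINB3 can share reads with its close paralog SERPINB4. Of the desmosomal cadherins, DSG1 was lower at -1.90 ± 0.33 (adjusted p = 3.69e-04). FLG, the epidermal filament protein, had 9.75, 7.18 and 9.08 CPM against 36.4, 29.2 and 24.2 CPM (-1.79 ± 0.27, adjusted p = 8.65e-05). TP63, the basal lineage regulator, was at -0.56 ± 0.18 (adjusted p = 0.0291), a call lost without CPI-0209 library 2 or 3, or PF-06821497 library 1 or 2. TGM5, an epidermal transglutaminase, was among the 2 higher genes, at 0.66 ± 0.23 (adjusted p = 0.0450). The TGM5 call was lost without any 1 library other than PF-06821497 library 3. Without CPI-0209 library 3, 42 were lower and 1 higher.

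Skin keratinocyte and hair markers, which could also come from host skin, had 5 of 10 tested genes (13 listed) lower and 0 higher. They summed to 511 to 641 CPM with CPI-0209, 1773 to 2918 CPM with PF-06821497 and 4171 to 5818 CPM in vehicle. The 10 markers of the carcinoma itself summed to 9061 to 10719 CPM against 12545 to 16590 CPM, with none at 0 in any of these libraries. Of these, KRT5, KRT17 and TP63 were lower and EPCAM, an epithelial adhesion molecule, was higher by 0.41 ± 0.14 (adjusted p = 0.0409). The EPCAM call was lost without CPI-0209 library 2 or without any 1 of the PF-06821497 libraries, and with a block by count column number (adjusted p = 0.0574). That of KRT17 (-0.71 ± 0.20, adjusted p = 0.0131) was lost without CPI-0209 library 3 or PF-06821497 library 3. Whether host skin contributed was not tested.

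**Figure D4:**
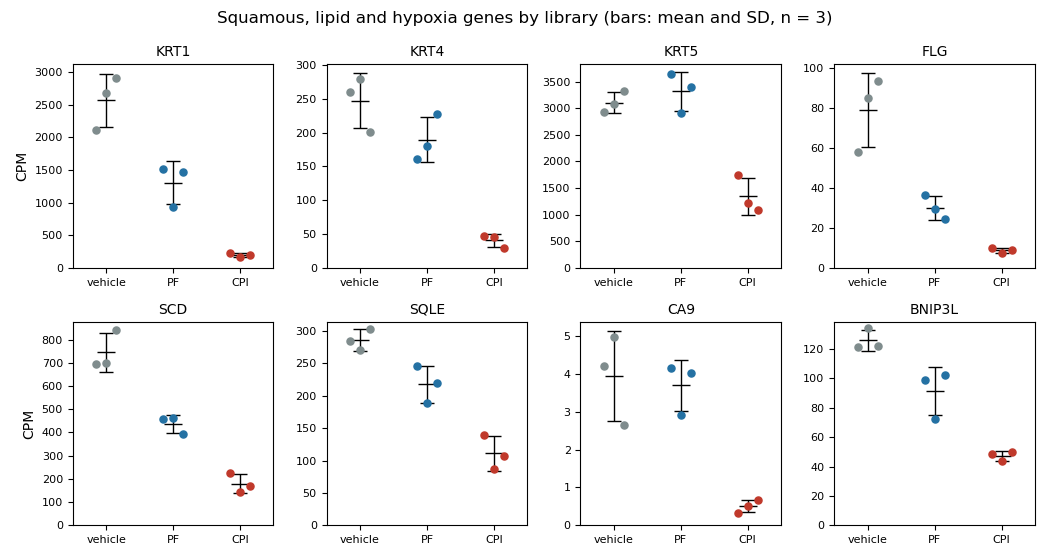
CPM of squamous genes (KRT1, KRT4, KRT5, FLG), lipid genes (SCD, SQLE) and hypoxia genes (CA9, BNIP3L) in the vehicle (grey), PF-06821497 (blue) and CPI-0209 (red) libraries, each panel on its own axis from 0, with bars for the mean and SD (n = 3). In all 8 panels the 3 CPI-0209 points lie under the 3 PF-06821497 points.

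Luminal urothelial genes showed no common direction. Of 37 listed, 32 were tested, of which 5 were higher, 5 lower and 22 did not pass, with a median of -0.07. Over all tested genes, 13.9% were higher and 8.66% lower. FGFR3, a receptor often active in luminal bladder tumours, had 56.4, 42.3 and 60.9 CPM with CPI-0209 and 101, 116 and 108 CPM with PF-06821497, and was lower at -1.03 ± 0.17 (adjusted p = 1.96e-04). PPARG, a luminal transcription factor, was lower (-0.82 ± 0.15, adjusted p = 5.86e-04). TMPRSS2, a membrane protease, was higher (2.82 ± 0.40, adjusted p = 4.19e-05), as was TRIM31 (1.24 ± 0.28, adjusted p = 0.00291). The lower genes numbered 2 without CPI-0209 library 2 or 3 and 3 without PF-06821497 library 1 or 3, and the higher genes 3 without CPI-0209 library 2.

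Genes tied to epithelial-mesenchymal transition moved both ways. Of 28 listed, 27 were tested, with a median of 0.84. Of these, 13 were higher and 6 lower, against 13.9% and 8.66% of all tested genes. MMP2, a collagenase, had 39.9, 48.7 and 111 CPM with CPI-0209 and 22.02, 12.5 and 19.6 CPM with PF-06821497, with the highest value in CPI-0209 library 3, a difference of 1.88 ± 0.35 (adjusted p = 6.96e-04). TGFBI, a matrix protein induced by TGF-beta, had 176, 157 and 137 CPM and 282, 296 and 387 CPM (-1.04 ± 0.18, adjusted p = 2.44e-04). LOXL2, which cross-links collagen, was lower at -1.06 ± 0.19 (adjusted p = 3.29e-04). The count of higher genes was 6 without CPI-0209 library 3 and 8 without PF-06821497 library 2 or 3. TWIST1 stands in this list and among the developmental factors.

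Transcripts of lipid synthesis genes were lower with CPI-0209. Of 34 genes of cholesterol and fatty acid synthesis, 22 were lower and 0 higher, with a median of -0.56. SCD, which desaturates fatty acids, had 227, 145 and 168 CPM with CPI-0209 and 458, 462 and 393 CPM with PF-06821497. SQLE, an early enzyme of sterol synthesis, had 140.1, 86.5 and 107 CPM and 246, 188 and 219 CPM. Groups did not overlap for either, with differences of -1.28 ± 0.18 (adjusted p = 4.32e-05) and -0.97 ± 0.16 (adjusted p = 2.11e-04). MSMO1, a later enzyme of sterol synthesis, was lower too, at -0.86 ± 0.15 (adjusted p = 2.69e-04). Without CPI-0209 library 3, 17 were lower.

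Hypoxia and glycolysis genes were lower in 20 of 40 cases and higher in 2, with a median of -0.51. CA9 (ENSG00000107159, hg38 chromosome 9, 35673856 to 35681159, plus strand), a carbonic anhydrase used as a marker of hypoxia, had 0.334, 0.517 and 0.669 CPM with CPI-0209 and 4.15, 2.92 and 4.04 CPM with PF-06821497. BNIP3L, a mitophagy receptor, had 48.5, 43.4 and 50.2 CPM and 99.0, 72.6 and 102 CPM. Both had groups clear of overlap, at -2.91 ± 0.51 (adjusted p = 3.52e-04) and -0.95 ± 0.17 (adjusted p = 3.61e-04). The histone demethylase KDM3A was lower at -0.98 ± 0.20 (adjusted p = 0.00126). CA12, another carbonic anhydrase, was higher, at 20.0, 27.4 and 27.1 CPM against 7.43, 6.32 and 7.90 CPM (1.78 ± 0.24, adjusted p = 2.38e-05). The other higher gene, LOX, differed by 0.94 ± 0.32 (adjusted p = 0.0387), a call lost without CPI-0209 library 2 or 3, or PF-06821497 library 2 or 3, and with a block by count column number (adjusted p = 0.0585). Tumour size at harvest was not analysed here.

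Proliferation genes shifted by small amounts, mostly to lower levels. Of 71, 19 were lower and 0 higher, against 8.66% and 13.9% of all tested genes. The list had a median of -0.26, and 50 of the other 52 had an interval within 2-fold. KIF20A, a mitotic kinesin, had 42.3, 34.8 and 35.0 CPM with CPI-0209 and 60.4, 56.2 and 60.2 CPM with PF-06821497, a difference of -0.66 ± 0.12 (adjusted p = 3.60e-04). CCNB2, a mitotic cyclin, was lower at -0.63 ± 0.12 (adjusted p = 5.50e-04), ANLN at -0.70 ± 0.17 (adjusted p = 0.00420) and NUSAP1 at -0.37 ± 0.09 (adjusted p = 0.00546). The count of lower genes was 10 without CPI-0209 library 2, 7 without CPI-0209 library 3, 12 without PF-06821497 library 1 and 10 with upper-quartile scaling. None of the 4 named genes passed a test against a 1.5-fold change.

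CDK inhibitors and p53 targets had 2 of 30 genes higher and 1 lower, against 13.9% and 8.66% of all tested genes. CDKN1C, an imprinted CDK inhibitor, had 19.5, 24.1 and 19.8 CPM with CPI-0209 and 8.83, 6.19 and 9.04 CPM with PF-06821497 (1.40 ± 0.19, adjusted p = 2.65e-05). GDF15, a stress cytokine, was higher by 1.25 ± 0.24 (adjusted p = 7.38e-04), and CDKN2B was lower at -0.48 ± 0.11 (adjusted p = 0.00302). The lower genes numbered 2 without CPI-0209 library 2, PF-06821497 library 1 or PF-06821497 library 3. Xenobiotic and NRF2 genes had 3 of 34 tested members (43 listed) higher and 11 lower. Of the 33 that reached the filter minimum in libraries other than CPI-0209, 2 were higher and 11 lower. AKR1C2, an aldo-keto reductase, had 29.9, 23.7 and 22.6 CPM against 50.9, 78.9 and 76.2 CPM (-1.43 ± 0.24, adjusted p = 2.44e-04), and its reads can be shared with the other AKR1C genes. SLC7A11, the cystine transporter, was lower at -1.19 ± 0.23 (adjusted p = 6.69e-04). AHRR, the repressor of the aryl hydrocarbon receptor, was higher by 2.27 ± 0.36 (adjusted p = 1.21e-04), and SULT2A1, a sulfotransferase, by 3.44 ± 0.60 (adjusted p = 3.16e-04).

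Of 26 stress response genes, 1 was higher and 2 lower, against 13.9% and 8.66% of all tested genes. PDIA4, a chaperone of the endoplasmic reticulum, was higher by 0.52 ± 0.14 (adjusted p = 0.00876), a call lost without CPI-0209 library 2. PHGDH was lower at -0.60 ± 0.18 (adjusted p = 0.0175) and BAG3 at -0.31 ± 0.11 (adjusted p = 0.0432). Both calls were lost without CPI-0209 library 3 or PF-06821497 library 3, that of PHGDH also without CPI-0209 library 1 or PF-06821497 library 2, and that of BAG3 also without CPI-0209 library 2 or PF-06821497 library 1. Immediate early genes had 2 of 27 higher and 5 lower, against 13.9% and 8.66% of all tested genes. FOS had 25.2, 24.2 and 28.2 CPM with CPI-0209 and 65.5, 34.7 and 106 CPM with PF-06821497, a wide spread in the latter, and was lower at -1.41 ± 0.33 (adjusted p = 0.00456). EGR1 was lower at -1.01 ± 0.20 (adjusted p = 7.75e-04) and ZFP36 at -0.75 ± 0.15 (adjusted p = 0.00131), whereas DUSP4, a phosphatase of ERK signalling, was higher by 0.67 ± 0.11 (adjusted p = 1.66e-04). The lower immediate early genes numbered 12 without PF-06821497 library 2 and 3 without PF-06821497 library 1 or 3, and the higher ones 1 without CPI-0209 library 3, PF-06821497 library 1 or PF-06821497 library 2.

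**Figure D5:**
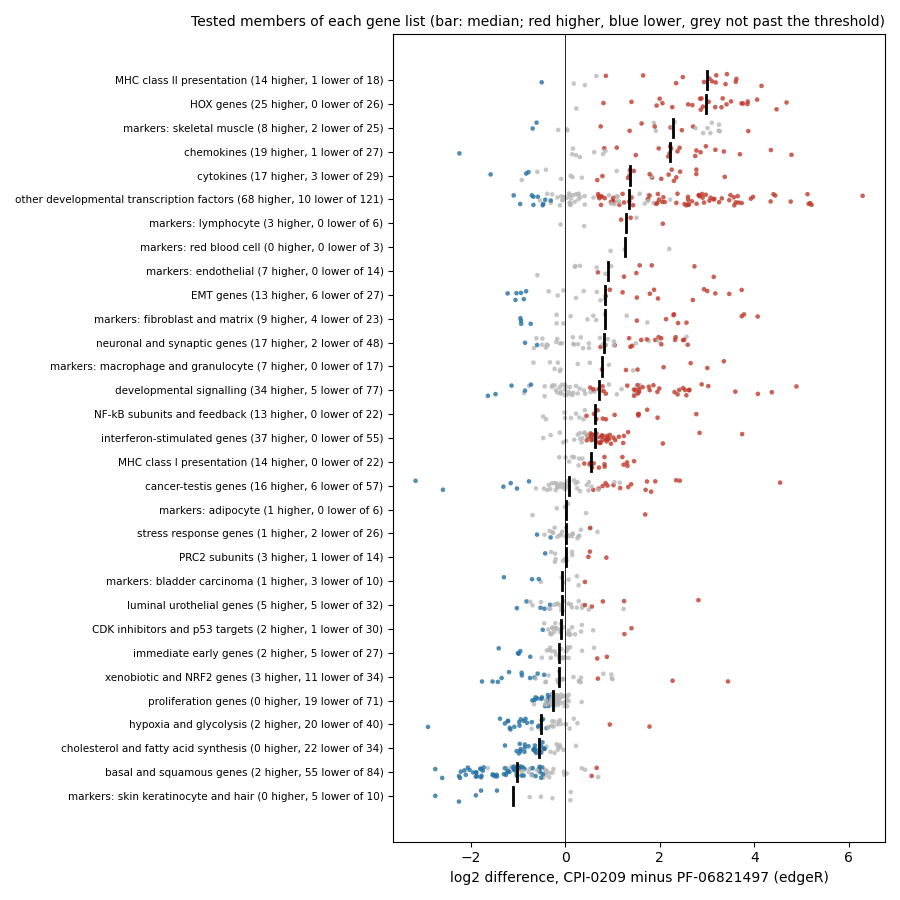
Log2 difference between CPI-0209 and PF-06821497 for every tested member of each list, with red for higher, blue for lower and grey for genes that did not pass, and a black bar at the list's median. MHC class II presentation (2.99) and HOX genes (2.97) have the highest medians and skin markers (-1.10) and basal and squamous genes (-1.03) the lowest.

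Among single genes, the 12 largest differences each way, with at least 1 CPM in the higher group and no overlap, included few abundant transcripts. They were ranked on the difference itself. Low-count genes of the higher set may have reached the filter minimum through CPI-0209 alone, which was not counted. CLEC4E, a pattern receptor of myeloid cells, had 0.446, 2.01 and 1.05 CPM with CPI-0209 and 0 counts in all 3 PF-06821497 libraries. Set against a floor of 3 counts over the PF-06821497 group, it was at least 25.7-fold higher, a bound that covers counting error only. FOXN4, a retinal transcription factor, had 0.613, 1.49 and 3.15 CPM and only 1 count in all PF-06821497 libraries, a ratio of 99.8 (95% counting interval 17.3 to 3997). KIF25, a kinesin, also had 1 count there, a ratio of 85.5 (95% counting interval 14.8 to 3434). TCL1A, a lymphoid proto-oncogene, had 2 counts with PF-06821497 and a ratio of 52.0 (95% counting interval 13.9 to 438). HLA-DQB2, a class II chain, had 3 counts with PF-06821497 and a ratio of 49.4 (95% counting interval 16.4 to 244). The transcription factor ATOH8 had 2 counts with PF-06821497 and a ratio of 47.0 (95% counting interval 12.5 to 397), and the membrane mucin MUC13 had 3 counts and a ratio of 42.3 (95% counting interval 14.0 to 209). Of the noncoding genes, TBX5-AS1 had a ratio of 59.2 (95% counting interval 15.9 to 497), SENCR of 41.3 (95% counting interval 10.9 to 349) and LINC02086 of 38.5 (95% counting interval 10.2 to 326). CLEC4E had a value in only 17 of the 21 settings given below, SENCR and LINC02086 in 19 and TCL1A in 20. TBX5-AS1 lies beside TBX5, and without a stated strand setting its reads cannot be told apart from those of an overlapping gene. IGF2BP1, an RNA-binding protein of embryonic tissue, was the most abundant of the 12, at 13.7, 26.1 and 19.8 CPM against 0.883, 0.344 and 0.571 CPM (5.06 ± 0.58, adjusted p = 8.16e-06). TAL1 completed the set.

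Among the 12 genes furthest below PF-06821497, KRT1 and CA9 are given above. GPR15LG, an epithelial ligand of the receptor GPR15, had 1.62, 0.977 and 1.24 CPM with CPI-0209 and 17.2, 10.2 and 22.04 CPM with PF-06821497. All CPI-0209 libraries were far under the others, at -3.68 ± 0.54 (adjusted p = 1.07e-04). LGALS7 and LGALS7B, near-identical genes for galectin-7 of squamous epithelium, differed by -2.70 ± 0.40 (adjusted p = 1.00e-04) and -2.76 ± 0.33 (adjusted p = 1.02e-05), and their split is uncertain. The secreted phospholipase PLA2G3 differed by -3.33 ± 0.58 (adjusted p = 3.52e-04) and SLURP1, a secreted keratinocyte protein, by -3.25 ± 0.57 (adjusted p = 2.97e-04). VIT, a matrix protein, had 0.557, 0.402 and 1.34 CPM against 4.99, 5.20 and 6.50 CPM (-2.99 ± 0.42, adjusted p = 4.12e-05), and CDHR1, a cadherin of photoreceptors, was lower at -2.92 ± 0.47 (adjusted p = 1.45e-04). HIF1A-AS3 had 3 counts in the CPI-0209 libraries, and PF-06821497 exceeded them by a ratio of 16.1 (95% counting interval 5.30 to 80.1). FAM181A-AS1 (-3.18 ± 0.42, adjusted p = 2.08e-05) and the pseudogene RPL7P16 (-2.81 ± 0.60, adjusted p = 0.00196) were the remaining members. HIF1A-AS3 and FAM181A-AS1 are antisense genes, whose reads cannot be told apart from those of an overlapping partner without a stated strand setting.

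Markers of vessels and stroma differed as well. Endothelial markers had 7 of 14 tested genes (16 listed) higher and 0 lower, against 13.9% and 8.66% of all tested genes. Of the 13 that reached the filter minimum in libraries other than CPI-0209, 6 were higher. The 16 markers summed to 137 to 178 CPM with CPI-0209, 68.9 to 106 CPM with PF-06821497 and 56.5 to 58.1 CPM in vehicle. PECAM1, an adhesion molecule of endothelium, had 25.4, 32.5 and 24.4 CPM against 11.5, 8.94 and 7.33 CPM (1.57 ± 0.22, adjusted p = 4.01e-05), and CLDN5, an endothelial tight junction protein, was higher by 3.14 ± 0.43 (adjusted p = 3.25e-05). The count was 4 without CPI-0209 library 2, CPI-0209 library 3 or PF-06821497 library 2. Fibroblast and matrix markers had 9 of 23 tested genes (24 listed) higher and 4 lower, with log2 differences from -0.95 to 4.07. The 24 summed to 2275, 2766 and 4996 CPM in CPI-0209 libraries 1, 2 and 3 against 1882 to 2442 CPM with PF-06821497. Library 1 thus lay within the PF-06821497 range. The genes named next are both among the higher ones. COL6A1, a chain of collagen VI, had 47.4, 115 and 79.2 CPM against 7.48, 2.41 and 4.61 CPM (4.07 ± 0.46, adjusted p = 1.10e-05), and THY1, a surface protein of fibroblasts, was higher by 3.73 ± 0.38 (adjusted p = 3.56e-06). Neither gene depended on library 3 for its separation.

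Skeletal muscle markers had 8 of 25 tested genes (27 listed) higher and 2 lower with all libraries, 3 and 2 without CPI-0209 library 3, and a median of 2.27 that became 0.74. Without PF-06821497 library 1, 2 or 3 the higher markers numbered 5, 3 and 3. RYR1, the calcium release channel of muscle, had 8.86, 7.47 and 26.3 CPM with CPI-0209 and 6.18, 4.25 and 5.88 CPM with PF-06821497, with its high value in library 3, and its call (1.36 ± 0.34, adjusted p = 0.00565) was lost without that library. TNNT3, a troponin of fast muscle, was lower with CPI-0209, at 191, 206 and 218 CPM against 221, 356 and 362 CPM (-0.61 ± 0.15, adjusted p = 0.00552). Adipocyte markers had 1 of 6 tested genes (12 listed) higher and summed to 144 to 199 CPM against 138 to 193 CPM. Over all tested genes, 13.9% were higher and 8.66% lower, near the shares of higher adipocyte markers and of lower muscle markers. FABP4, a fatty acid carrier, had 23.0, 22.5 and 18.9 CPM with CPI-0209 and 34.0, 25.1 and 45.7 CPM with PF-06821497. Its groups did not overlap, but the difference of -0.70 ± 0.28 (adjusted p = 0.0769) did not pass, with an interval of -1.28 to -0.12. Red blood cell markers summed to at most 4.2 CPM, and 0 of 3 tested passed (10 listed). HBB, which did not pass either, was at 0.334, 0.345 and 1.24 CPM against 0.104, 0 and 0.263 CPM.

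Each compound was also set beside vehicle. These comparisons share the 3 vehicle libraries, and each shares its own compound's libraries with the comparison above, so they are given side by side as description. Against vehicle, CPI-0209 raised 4888 genes and lowered 4129 (41.1% of tested genes), and PF-06821497 raised 1309 and lowered 789 (9.55%). Genes higher with CPI-0209 than with PF-06821497 had a median log2 difference from vehicle of 2.44 with CPI-0209 and 0.54 with PF-06821497. For the lower genes the medians were -0.78 and -0.13. Medians of the class II presentation list were 5.11 with CPI-0209 and 2.01 with PF-06821497, and 15 and 12 of the 18 genes were higher than vehicle. For chemokines they were 3.31 and 1.24. HOX genes had medians of 3.01 and 0.02, with 25 and 0 of 26 above vehicle. Interferon-stimulated genes had medians of 0.61 and -0.03, with 32 and 3 of 55 above vehicle. Basal and squamous genes had medians of -0.91 and 0.09, with 53 and 9 of 84 below vehicle.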

How the data were processed

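The deposited values are whole-number counts of reads per Ensembl gene, not normalized by the authors, 1 table per library with 57500 genes. STAR 2.7.3a, RSEM 1.3.1 and hg38 are named per the submitters' processing notes. Which program counted the reads, whether it used strand, which annotation it used and whether mouse reads were removed is not given in the sources used here. Symbols came from a list of current gene names, and from GENCODE 29 (56898 genes matched) where that list gave none. All tables held whole counts, with no row for unassigned reads.

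Counts of all 21 libraries were fitted at once in R 4.3.3 with edgeR 4.0.16 (filterByExpr by group, TMM scaling, robust quasi-likelihood test, 14 residual degrees of freedom, common biological coefficient of variation 0.163), with 1 term per group. All 7 groups share 1 estimate of the spread. Adjusted p is Benjamini-Hochberg over 21958 genes, two-sided, with a threshold of 0.05. Errors of log2 differences (CPI-0209 minus PF-06821497) are SE. CPM uses TMM-scaled totals. Folds against 0 counts use 3 counts over the group as a floor, and ratios with 1 to 3 counts carry an exact conditional 95% interval. A floor of 3 counts was 0.287 CPM in CPI-0209 library 3 and 0.129 to 0.172 CPM in the other 5 libraries. Intervals and floors cover counting error only.

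The groups compared, the gene lists and the rules were chosen with earlier results of these data known. Named were EZH2, EZH1, EED and SUZ12; the 12 largest differences each way among called genes with a symbol, no overlap and a higher-group mean of 1 CPM or more; and, per list, the members with the smallest p, up to 4. Some genes that this rule picks are not reported here. Other genes named were chosen after their values were seen. Some genes stand in several lists.

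Alternatives were no filter on low counts, a minimum of 1 CPM in 3 libraries, upper-quartile or RLE scaling, DESeq2 1.42.0, limma-voom (limma 3.58.1), a test against a 1.5-fold change, a fit of the 6 libraries alone, terms for resubmission marks, thinning to the lowest total, the muscle markers as a covariate, replicate blocks and each library left out. Title numbers and count column numbers differ for PF-06821497. Deviations from the group means did not correlate by title number (-0.05, -0.02 and -0.07) and correlated weakly by column number (0.13, 0.18 and 0.18), so a block by column number was added after the data were seen. Of the 21 pairs of groups, 1 had all its same-numbered correlations over 0.1 by column number. The fit was tested on simulated data.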

Additional observations from a re-analysis of the deposited data

How the results depend on the processing

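Upper-quartile scaling left 1241 genes lower with CPI-0209, against 1901. A test against a 1.5-fold change left 1729 higher and 272 lower genes. A fit of the 6 libraries alone gave 768 lower genes, and thinning to the lowest total 1899 higher and 1145 lower. Leaving out 1 library at a time gave 2190 to 3252 higher and 1222 to 1899 lower genes. With no filter on low counts 3942 were higher and 2252 lower, DESeq2 gave 3198 and 1741, limma-voom 3073 and 1706, and the muscle markers as a covariate 2349 and 1959. A replicate block by title number gave 2889 higher and 1643 lower genes, and a block by count column number 2911 and 1745, or 2639 and 1316 in the 6 libraries alone. Of the genes the text gives values for, the block by column number ended the calls of EPCAM (adjusted p = 0.0574), LOX (0.0585) and RFXAP (0.0570), and in the 6 libraries alone those of FOS (0.0502), NUSAP1 (0.0554), TGM5 (0.0692), TNNT3 (0.0699), PLA2G3 (0.0707), BAG3 (0.125) and RFXAP (0.148), while FABP4 passed there (0.0272). The block by title number ended those of BAG3 (0.0544), EPCAM (0.0603) and RFXAP (0.0607). Of 146 named genes, 100 kept their side of the threshold in all 21 settings. Another 9 did so in the 17 to 20 settings that gave them a value. In at least 1 setting 37 lost or gained a call, and 0 changed direction where either fit called them. Genes called in neither fit could change sign and still count as kept, as EZH2 (-0.10 to 0.11) and SUZ12 (-0.18 to 0.17) did. The main limits were 3 libraries a group, the lower depth of CPI-0209 library 3, 1 dose and time, and reads whose species is not recorded.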

Other observations

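Some genes stood at similar levels with both compounds while both were away from vehicle. A rule for them was chosen after values were seen. It asked for at least 2-fold from vehicle with each compound, at an adjusted p under 0.05 in the same edgeR fit. It also asked for no call between the compounds, a 95% interval of that difference within 2-fold, and a mean of at least 1 CPM in a group. By this rule 143 genes were found, 124 above vehicle and 19 below. ESRG, a noncoding gene of pluripotent cells, was at 26.5 ± 7.19 CPM with CPI-0209, 20.9 ± 4.83 with PF-06821497 and 3.99 ± 1.38 in vehicle (SD, n = 3), with an interval of -0.21 to 0.92. AGPAT4, an acyltransferase of phospholipid synthesis, was at 23.6 ± 1.03, 18.4 ± 2.74 and 4.79 ± 0.611 CPM (interval 0.03 to 0.68). DPPA2, a gene of pluripotent cells, was at 2.03 ± 0.682, 2.22 ± 0.630 and 0.461 ± 0.0394 CPM (interval -0.63 to 0.46).

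A smaller group was higher than vehicle with PF-06821497 and lower with CPI-0209 than with PF-06821497. PMP2, a myelin lipid carrier beside FABP4 in the fatty acid binding family, was among its 52 genes, at 5.35, 2.36 and 3.63 CPM with CPI-0209, 19.5, 15.2 and 16.8 CPM with PF-06821497 and 1.51 ± 0.1001 CPM in vehicle (SD, n = 3). CPI-0209 libraries lay under all PF-06821497 libraries at PMP2 (-2.18 ± 0.36, adjusted p = 1.97e-04).

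By gene type, 376 of 1182 tested processed pseudogenes were higher with CPI-0209 (31.8%) and 20 lower, whereas protein-coding genes were higher in 2157 of 15497 cases (13.9%). Their median log2 difference was 0.60, against -0.05 for protein-coding genes. Without CPI-0209 library 3 the count was 190 and the median 0.39, and with the muscle markers as a covariate 202 and 0.55. The source of these reads was not tested.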
